A study of Mus musculus with 4 samples.

Results

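The collagen genes are described here in single cells of the mouse otic region at E10.5. A gene was taken when its symbol had the form Col, number, a, number in all 4 matrices and it had at least 50 UMIs (unique molecular identifiers, one per captured RNA molecule) summed over the libraries. Of 32285 genes in the matrices, 44 had such a symbol and 35 reached the minimum. Col24a1 was the lowest member with 73 UMIs, and Col17a1 was the highest gene left out, with 48. Col2a1 had the most, with 82722. The other genes left out were Col19a1, Col8a1, Col6a5, Col28a1, Col6a6, Col6a4, Col4a3 and Col10a1.

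Cells came from Swiss-Webster embryos of 34 to 36 somites. All 4 libraries came from embryos with the Cre driver Pax2-Cre and the reporter Rosa26-GFPf/+. Control libraries 1 and 2 had no further allele named, while the embryos of cKO libraries 1 and 2 were also Tbx2f/f and Tbx3f/f. Pax2-Cre is active in the otic lineage, and GFP marks cells in which Cre has acted at the reporter. Otic vesicle, cochleovestibular ganglion and nearby neural tube and pharyngeal tissue were dissected, vesicles were pooled, and GFP+DAPI- cells were sorted. The protocol names 3 control and 2 cKO embryos without dividing them among libraries, so the p-values below measure the spread between libraries, which may be technical. Tbx2 and Tbx3 encode T-box transcription factors, and per its title the study asks about their role in cell fate in the otic vesicle.

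Collagens are triple helices of 3 alpha chains. Fibrillar collagens (types I, II, III, V, XI, XXIV and XXVII) form the fibrils of connective tissue and cartilage. Type IV collagens form the network of basement membranes, which multiplexins (types XV and XVIII) join. FACIT collagens (types IX, XII, XIV, XVI, XX and XXII) sit on fibril surfaces, types XIII, XXIII and XXV span the cell membrane, type VI forms beaded filaments, and type VII makes anchoring fibrils. In the inner ear, type II and type IX collagens are made by the otic epithelium and later contribute to the tectorial membrane. Col11a1 and Col11a2 are known from hearing loss. The SOX9 protein, with SOX5 and SOX6, is a known activator of the genes for types II, IX and XI in cartilage.

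Promoter windows of 300 bases in the RefSeq table (build GRCm38.p6) were found for 27 of the 35 genes. Of these, the bases before the first listed start of Col9a1 and Col9a2 are shown because both fell in otic cells, and those of Col11a1 because it moved in opposite directions in 2 otic clusters. They were read on the + strand and hold no annotated exon. For Col9a2 only the first 69 of the 250 bases are shown, up to its first annotated exon. Its bases from there to the listed start were not searched. Capitals mark matches to GGGCGG (GC box), searched on both strands together with AACAAT (a SOX-type core) and TATAAA. These motifs do not overlap one another.
Col9a1, chr1:24177360-24177609, ends 1 base before the start: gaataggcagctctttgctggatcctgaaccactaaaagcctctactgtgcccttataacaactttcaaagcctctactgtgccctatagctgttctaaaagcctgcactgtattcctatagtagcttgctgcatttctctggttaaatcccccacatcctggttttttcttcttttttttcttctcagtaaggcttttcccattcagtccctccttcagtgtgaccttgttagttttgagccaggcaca
Col11a1, chr3:114030290-114030539, ends 1 base before the start: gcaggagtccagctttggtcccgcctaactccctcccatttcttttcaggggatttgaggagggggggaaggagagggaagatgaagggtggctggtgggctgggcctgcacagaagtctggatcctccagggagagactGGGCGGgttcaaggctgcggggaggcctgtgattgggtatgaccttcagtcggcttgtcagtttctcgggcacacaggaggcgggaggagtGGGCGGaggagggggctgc
Col9a2, chr4:121039316-121039384, the first 69 bases of its window: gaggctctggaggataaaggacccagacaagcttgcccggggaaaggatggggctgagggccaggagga
Neither AACAAT nor TATAAA was found in the bases shown. In the Col11a1 window GGGCGG occurred 2 times, and in the Col9a1 window 0 times. Over 32851 windows, the same 250 bases held GGGCGG in 32.7%, TATAAA in 12.4% and AACAAT in 9.4%. Over the same 69 bases these shares were 7.0%, 3.7% and 2.9%. The 250 bases of Col11a1 were 62.4% G or C and those of Col9a1 43.6%, against a median of 52.4% over all windows.
Col4a1 and Col4a2, whose chains assemble together, lie head to head, and their annotated starts overlap by 22 bases (chr8:11312805-11312826, + strand): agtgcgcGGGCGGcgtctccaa
A GC box lies within this shared stretch. The pair Col4a5 and Col4a6 lies likewise, with 1308 bases between the genes.

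After filters, 3869 and 3597 control and 3220 and 3713 cKO cells remained, with median UMI counts per cell between 26970 and 30081. Clusters were formed without any collagen gene among the clustering genes and named from marker lists, so collagen levels had no part in a cell's class. A level is given as the counts of a gene per 1000000 UMIs of the class in a library (CPM). Each captured RNA gives 1 UMI at its 3′ end, whatever its length, so levels of different genes can be set side by side without a length correction, within the limits of how well each 3′ end is captured. The median mitochondrial share of UMIs separated the genotypes, at 2.41% and 2.96% in control 1 and 2 and 1.31% and 1.38% in cKO 1 and 2 (2.30% and 2.87% against 1.20% and 1.27% in otic cells), and its part in the changes below was not tested. Pairs of libraries shared between 1 and 5 cell barcodes. The targeted genes were lower in cKO otic cells, with Tbx3 at 63.1 and 60.9 CPM in control 1 and 2 against 22.5 and 17.8 in cKO 1 and 2, and Tbx2 at 92.9 and 102 against 69.5 and 67.6. Which exons are floxed is not given in the sources used here, so a 3′ tag may lie outside them.

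The cell classes differed in which chains led, as the map of levels by class shows. Otic epithelium-like cells (2151, 1832, 1120 and 2016 cells in control 1, control 2, cKO 1 and cKO 2), named by markers such as Pax2, Epcam and Lmx1a, were led by Col2a1, the chain of type II collagen. Its level was 308, 350, 203 and 206 CPM in that order of libraries, and the groups did not overlap. Next came Col4a1 (mean over libraries 115 CPM), Col18a1 (93.6), Col11a1 (91.6), Col9a1 (71.2), Col4a2 (70.0), Col9a3 (60.6) and Col9a2 (44.0). Summed over all 35 genes, otic cells had 998 and 1092 CPM in control against 678 and 738 in cKO. Fibrillar chains made up 42.0% and 42.9% of this sum in control and 44.6% and 41.1% in cKO. FACIT chains made up 23.1% and 24.0% in control and 17.1% and 16.9% in cKO, while the type IV share was 20.7% and 18.3% against 25.6% and 28.5%. Otic cells thus carried type II, IX and XI chains beside a basement membrane set. Of types I and III they had little, with Col3a1 averaging 0.16 CPM and Col1a2 1.2.

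**Figure D1:**
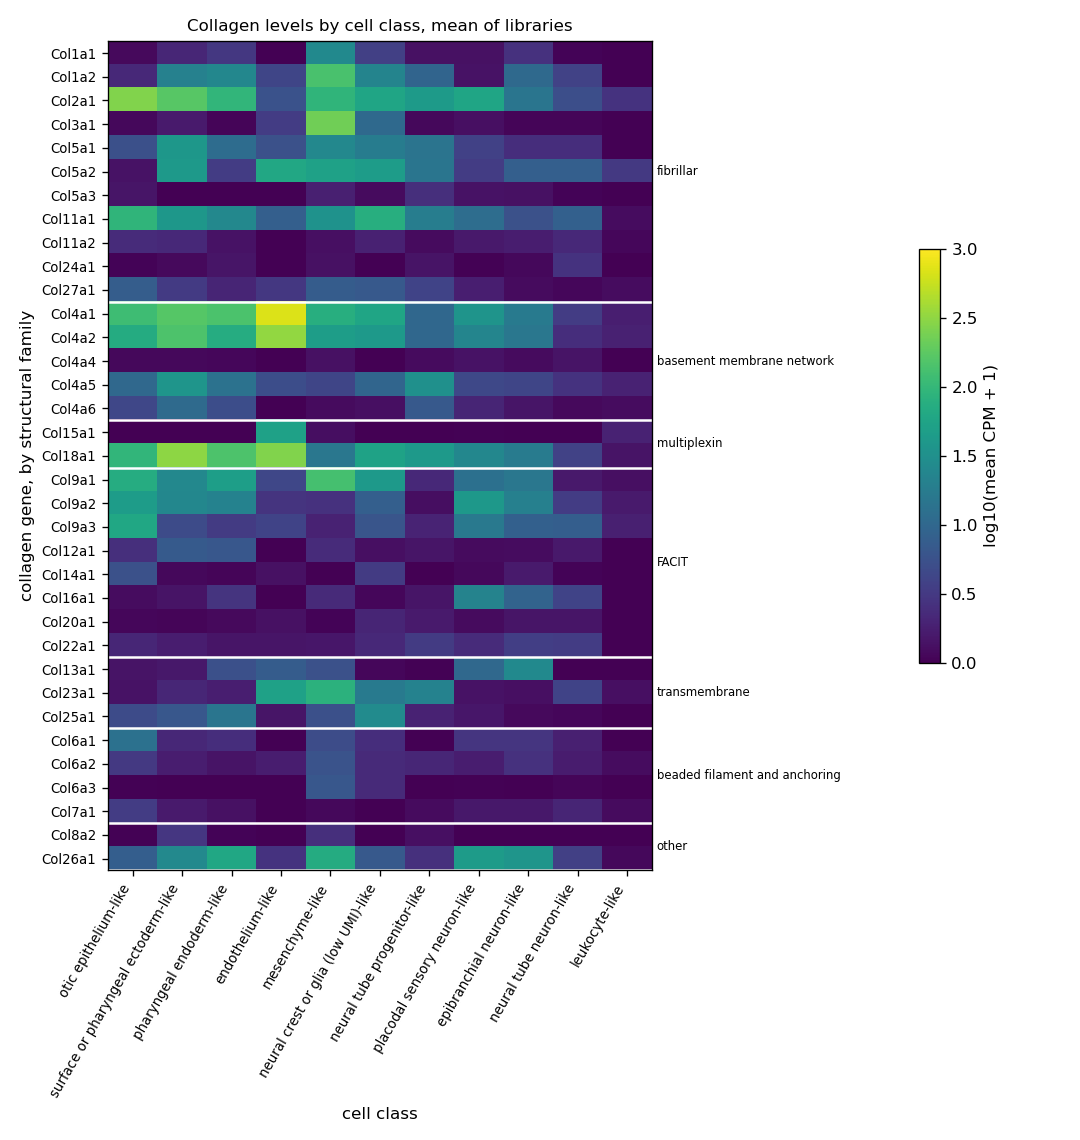
Mean level of each collagen gene (rows, by structural family) in 11 cell classes (columns), as log10(mean CPM + 1) over the libraries with at least 20 cells of the class. Col2a1 is the brightest row in otic epithelium-like cells (mean 267 CPM), Col4a1 in endothelium-like cells (691) and Col3a1 in mesenchyme-like cells (222), and the leukocyte-like column is dark throughout.

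Mesenchyme-like cells (115, 156, 262 and 85 cells) carried the fibrillar chains of loose connective tissue. Col3a1, the chain of type III collagen, stood at 254, 211, 221 and 202 CPM, and Col1a2, a chain of type I collagen, at 177, 174, 91.4 and 107 CPM. Col9a1 (mean 131 CPM), Col2a1 (90.3), Col23a1 (83.4), a membrane-spanning collagen, Col4a1 (75.5), Col26a1 (69.8) and Col5a2 (51.6) followed. Col9a1 was high there without its partner chains, since Col9a2 averaged 1.7 CPM and Col9a3 0.9, whereas the 3 chains stood at 71.2, 44.0 and 60.6 CPM in otic cells.

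Endothelium-like cells (37, 19, 43 and 37 cells) had the highest type IV levels, with Col4a1 at 750, 642 and 681 CPM in control 1, cKO 1 and cKO 2, and Col4a2 at 369, 296 and 302. Control 2 had too few such cells for a value. Col18a1, the chain of type XVIII collagen and source of endostatin, averaged 269 CPM and Col15a1 averaged 51.1, while Col15a1 was at 1.0 CPM or less in every other class of the map. Col5a2 (62.0) and Col23a1 (50.7) were next in the endothelium-like cells. Surface or pharyngeal ectoderm-like cells (214, 49, 339 and 294 cells) were led by Col18a1 at 286, 341, 285 and 315 CPM, which overlapped between the genotypes. Col2a1 (mean 163 CPM), Col4a1 (159), Col4a2 (146), Col5a2 (40.8), Col5a1 (37.8), Col11a1 (37.2) and Col4a5 (35.6) followed. A cluster of 373 cells classed as pharyngeal endoderm-like from Pax1, Pax9 and Nkx2-6, with the epibranchial genes Phox2a and Neurog2 also among its leading genes, was led by Col18a1 (146 CPM), Col4a1 (141) and Col2a1 (92.2).

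Taken as whole classes, neurons held less collagen RNA than otic cells and a different set. Cluster 19 of the placodal class, described below, was high in collagen (Col2a1 at 194 and 224 CPM in control). In placodal sensory neuron-like cells (627, 720, 314 and 377 cells), the lineage of the cochleovestibular ganglion, Col2a1 (mean 57.3 CPM), Col26a1 (42.9), Col9a2 (39.3), Col4a1 (34.8), Col18a1 (23.7), Col4a2 (22.3), Col16a1 (21.2) and Col9a3 (15.4) led. In epibranchial visceral sensory neuron-like cells (298, 281, 232 and 357 cells) Col26a1 (36.03 CPM) and Col13a1 (25.5), a membrane-spanning collagen of adhesion sites and the neuromuscular junction, were the highest. Col9a2 (19.5), Col18a1 (16.6), Col4a1 (16.1), Col4a2 (14.7), Col9a1 (14.3) and Col2a1 (13.6) followed. Col16a1, a FACIT collagen, was at 8.1 CPM there and at 0.2 CPM in otic cells. Neural tube progenitor-like cells had Col2a1 (42.6 CPM), Col18a1 (41.5) and Col4a5 (31.2) at their head, so Col4a5 stood above Col4a1 (9.1) in that class. Col23a1 (20.2), Col11a1 (17.8), Col5a2 (13.5) and Col5a1 (13.4) lay between them. In neural tube neuron-like cells no member averaged above 7.4 CPM, the level of Col11a1.

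The members of low abundance were also unevenly spread. Col1a1, the other type I chain, was at 35.5, 27.5, 16.0 and 23.2 CPM in mesenchyme-like cells and at most 2.8 CPM as a mean in the other named classes. Among named classes Col6a2 (4.8) and Col6a3 (5.5) were highest in mesenchyme-like cells too, whereas Col6a1 was highest in otic cells (12.3), so the 3 type VI chains did not share their leading class. Col7a1 (2.4) and Col14a1 (4.6) were highest in otic cells. Of the named classes ectoderm-like cells had the highest Col4a6 (9.7) and Col12a1 (6.1), and the highest level of Col8a2, a network-forming collagen of vessels and cornea, at 1.9 CPM. Col25a1 was highest in the neural crest or glia-like cells (27.2), where the libraries ranged from 2.1 to 69.5 CPM. Col20a1, Col22a1, Col24a1 and Col4a4 did not exceed 2.6 CPM as a mean in any named class, and Col24a1 was highest in neural tube neuron-like cells, at 1.8.

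Cluster 26 stayed unnamed for want of markers and is not in the map by class. Its 98 cells (28, 23, 30 and 17) were led by Ttr, Rspo1 and Colec12, with Wnt1, Zic1 and Otx2 also among the leading genes. Levels could be given for 3 libraries, as cKO 2 had under 20 of these cells. Several chains had a higher mean there than in any named class. These were Col5a1 at 85.5, 58.5 and 52.9 CPM, Col4a5 at 76.0, 58.5 and 65.2, Col1a1 at 44.8, 15 and 40.7 and Col4a6 at 27.1, 28.5 and 14.9 in control 1, control 2 and cKO 1. Col5a3 (mean 9.3), Col22a1 (7.4) and Col8a2 (6.1) were also highest there, on few UMIs. Col18a1 (135) led the cluster, and Col6a1 and Col6a3 were at 0.

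Leukocyte-like cells, which are not a known source of type II or type IX collagen, served to read the level of free RNA. Their sum over all 35 genes was 15.5, 18.1, 6.7 and 6.0 CPM. With each cell thinned to 10000 UMIs, a Col2a1 UMI was found in 92.5% and 94.2% of control and 80.4% and 84.0% of cKO otic cells, and in 2.1%, 2.5% and 2.0% of leukocyte-like cells of control 1, control 2 and cKO 2 (exact 95% binomial interval 0.05 to 11.1% in control 1). In cKO 1 it was found in 0 of 53 leukocyte-like cells, which allows up to 5.66%. A Col1a2 UMI was found in 0.99%, 1.18%, 1.11% and 1.27% of thinned otic cells and in 52.7% to 75.0% of mesenchyme-like cells. In leukocyte-like cells of control 1 it was found in 0 of 48, which allows up to 6.25%, so the Col1a2 share of otic cells cannot be told from free RNA at this number of cells. Without thinning, a Col2a1 UMI was found in 97.5% to 99.4% of otic and 0% to 15% of leukocyte-like cells, at median UMI counts of 29954 to 37392 and 37492 to 51386 per library. These intervals and limits cover counting error only.

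Within the otic class, 10 clusters differed in which chains they carried, as the map of levels by otic cluster shows. The clusters are described by territory genes well above the median otic cluster. Since other genes of the same lists were often not high, these are descriptions and no territory is assigned. Clusters 0 and 1, which had the neurogenic genes Neurog1, Lfng and Fgf3 and the progenitor genes Sox3, Sfrp2 and Cxcl12 above the median otic cluster, held 89.0% of cKO 1 and 86.0% of cKO 2 otic cells, against 0.42% and 0.16% of control. Clusters 6 and 12 (Sema3e, Aldh1a2, Mylk3, Hmx2, Hmx3, Msx2 and Oc90 high, Gbx2 below the median), 10 (Otx1, Otx2, Gsc and Cnmd), 13 (Otol1 and Cnmd), 9 (Otol1, Slitrk6, Neurod1, Neurog1 and Dll1) and 15 (Gbx2 and Rspo3) were almost entirely control cells. Of the 10, only clusters 4 (346, 250, 29 and 69 cells) and 17 (78, 87, 62 and 158 cells) had at least 20 cells in every library. Levels within clusters are descriptions and were not tested against each other.

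Cluster 17, with Rspo3, Oc90 and the genes Gbx2, Dlx5, Dlx6 and Msx2 of the dorsal list high, but Hmx2, Hmx3 and Bmp4 of that list below the median otic cluster, carried the most collagen RNA: 2216 and 1965 CPM over all 35 genes in control, against 887 to 1313 CPM in the other control clusters. Col11a1 stood there at 531 and 379 CPM in control 1 and 2, Col14a1 at 119 and 81.2, Col11a2 at 26.1 and 20.4, and Col5a3 at 12.1 and 22.6. Col14a1, a FACIT collagen of tendon and skin, was at most 5.6 CPM in the control libraries of every other otic cluster. Clusters 6 and 12 were high in Col9a3 (129 and 156 CPM in cluster 6, 134 and 156 in cluster 12) and in Col5a1 (9.8 and 11.4, 9.7 and 14.6), but low in Col6a1, at 5.6 and 3.7 and at 4.3 and 4.2 CPM. Col6a1, a chain of type VI collagen, was highest in cluster 13 at 27.4 and 26.2 CPM. Col9a2 was highest in cluster 10 (79.5 and 98.6 CPM) and cluster 9 (77.5 and 88.7). Cluster 9 was also the one with Col12a1, at 13.4 and 14.3 CPM. The other type IX genes, Col9a1 and Col9a3, were highest in control cells of cluster 17, at 185 and 159 CPM and at 179 and 195 CPM.

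**Figure D2:**
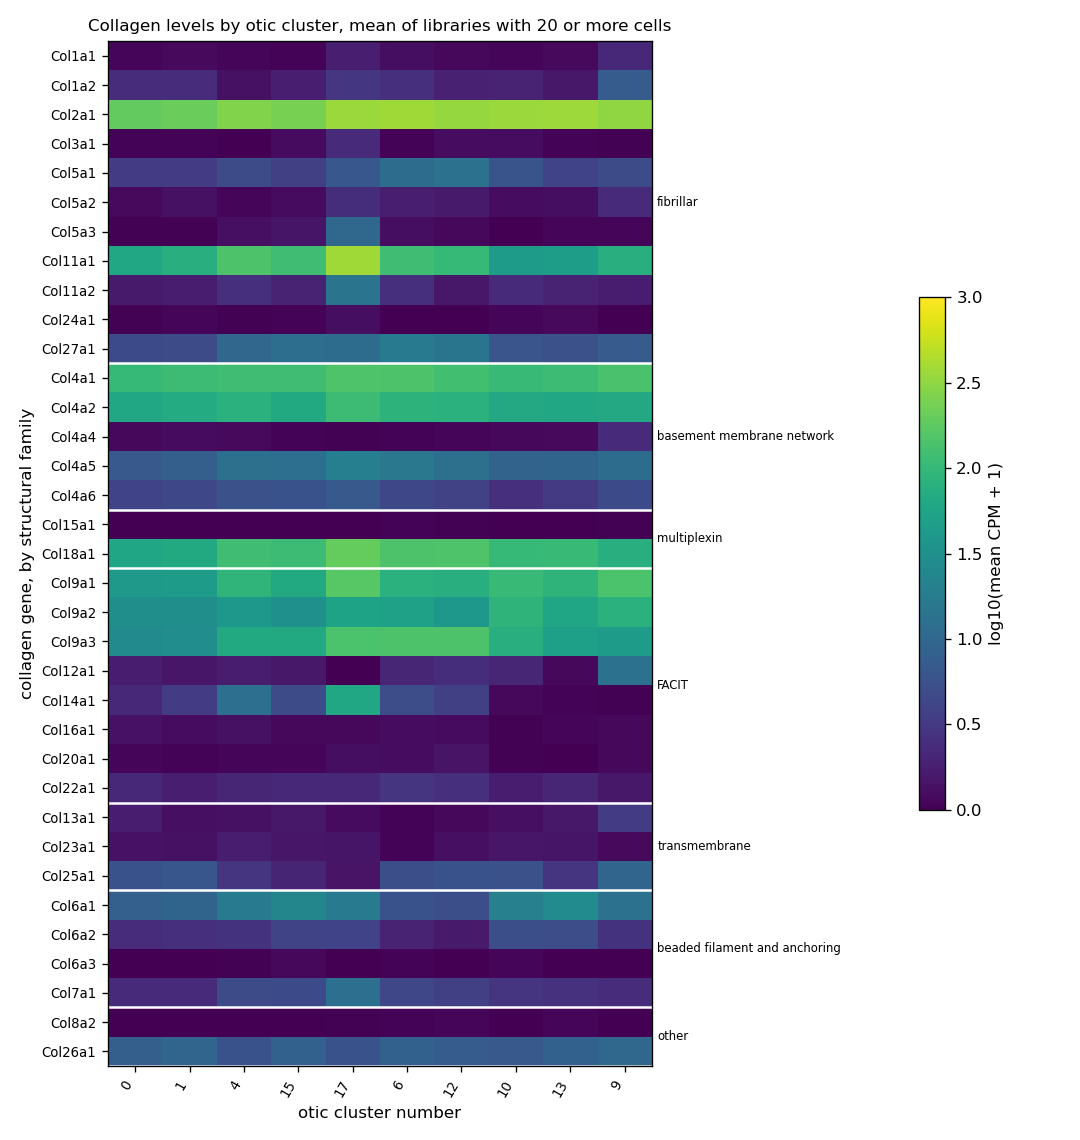
Mean level of each collagen gene (rows) in the 10 otic clusters (columns), as log10(mean CPM + 1) over libraries with at least 20 cells of the cluster. Clusters 0 and 1 are cKO cells, clusters 4 and 17 are shared, and the rest are control cells except for 21 cells of cKO 2 in cluster 9. Col11a1, Col14a1, Col11a2 and Col5a3 are brightest in cluster 17, at means of 369, 62.1, 13.1 and 9.3 CPM.

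The change in cKO was tested on summed counts with edgeR at an adjusted p of 0.05, over all genes. Log2 changes are cKO over control after TMM scaling, with their standard error (SE). In otic cells TMM set them 0.17 above the log2 ratio of the plain CPM, as a median over 12 members, and between -0.01 and 0.13 in the other comparisons that called a member. No call changed sign on plain CPM. In otic cells 30 of the 35 genes passed the filter on low counts, and Col3a1, Col6a3, Col8a2, Col15a1 and Col24a1 did not. A gene can pass it through 1 genotype alone, so counts over tested members describe only those. Of the 30, 14 fell and 4 rose. Of all 15356 genes tested there, 19.5% fell and 20.9% rose, and the median log2 change was -0.43 over the members and -0.02 over all genes. With doublets kept, 10 of 29 fell and 2 rose, where 3116 of 14982 genes fell and 3353 rose. The median was then -0.09 over the members and -0.02 over all genes. The calls of Col1a2, Col7a1, Col11a2, Col14a1, Col25a1 and Col26a1 were then lost. A further fall was no longer called, since its gene was not among the 29 tested. Of the 2 rises, only that of Col13a1 was also called with doublets removed. DESeq2 called 13 of the 30, and 4803 of all 15356 genes.

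Type II and type IX collagen genes were lower in cKO otic cells, whereas Col11a1 did not pass. Col9a3 was at 82.1 and 94.8 CPM in control 1 and 2 and at 30.8 and 34.6 in cKO 1 and 2 (log2 -1.26, SE 0.08, adjusted p = 2.7e-05). Col9a1 went from 86.8 and 97.0 to 48.0 and 53.1 CPM (-0.69, SE 0.08, adjusted p = 0.00033), and Col9a2 from 52.0 and 61.3 to 31.6 and 31.1 (-0.68, SE 0.08, adjusted p = 0.00052). All 3 chains of type IX collagen therefore fell. Col2a1 fell by 0.52 on the log2 scale (SE 0.08, adjusted p = 0.0013), with the levels given above. Col11a1, whose chain joins type II in fibrils, did not pass: 92.5 and 97.4 CPM in control against 89.6 and 87.0 in cKO (log2 0.06, SE 0.07, adjusted p = 0.49). Its partner Col11a2 was low at 1.6 and 1.9 CPM and fell to 1.0 and 0.8 (-0.83, adjusted p = 0.018), a call also lost with DESeq2, without control 2 and without cKO 2.

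Of the 9 fibrillar genes tested, 5 fell (also Col5a1 at -1.11, Col5a3 at -2.32 and Col27a1 at -0.90) and 1 rose, Col1a2 (0.73, adjusted p = 0.029), whose level cannot be told from free RNA and whose call was lost without control 2 and without either cKO library. Of the 8 FACIT genes, 5 fell and none rose. They include Col12a1 (2.7 and 2.3 CPM against 0.5 and 0.7, log2 -1.82) and Col14a1 (-0.37, adjusted p = 0.047), whose call was lost with RLE factors, with DESeq2 and without either control library or cKO 1. Its direction turned with doublets kept (0.28). Among the chains of beaded filaments and anchoring fibrils, Col6a1 fell from 17.2 and 15.9 to 7.4 and 8.4 CPM (-0.89, SE 0.10, adjusted p = 0.0004), and Col7a1 fell by 0.54 (adjusted p = 0.032), a call lost without any one library. Among membrane-spanning collagens, Col25a1 rose (2.3 and 3.7 to 4.7 and 4.5 CPM, log2 0.80, adjusted p = 0.013), and Col13a1 rose from a low level (0.2 and 0.4 to 0.6 and 0.5 CPM, log2 0.98, adjusted p = 0.048). Col26a1, a gene of the emilin-related EMI domain family, rose by 0.45 (adjusted p = 0.039), with overlapping levels of 5.3 and 7.2 against 8.0 and 7.1 CPM. The calls of Col25a1 and Col26a1 were lost without control 1, that of Col26a1 also without cKO 1, and that of Col13a1 without any one library.

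The basement membrane set was split. Col4a1, the most abundant type IV chain, was at 123 and 114 CPM in control against 101 and 123 in cKO (log2 0.08, SE 0.10, adjusted p = 0.55), and Col4a2 at 69.4 and 70.9 against 63.6 and 76.1 (0.16, adjusted p = 0.16). Their groups overlapped. Col18a1 fell from 111 and 127 to 61.5 and 74.4 CPM (-0.64, SE 0.10, adjusted p = 0.0015), and Col4a5 fell from 10.9 and 11.9 to 6.4 and 8.0 (-0.49, adjusted p = 0.012). The last call was lost without control 2.

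**Figure D3:**
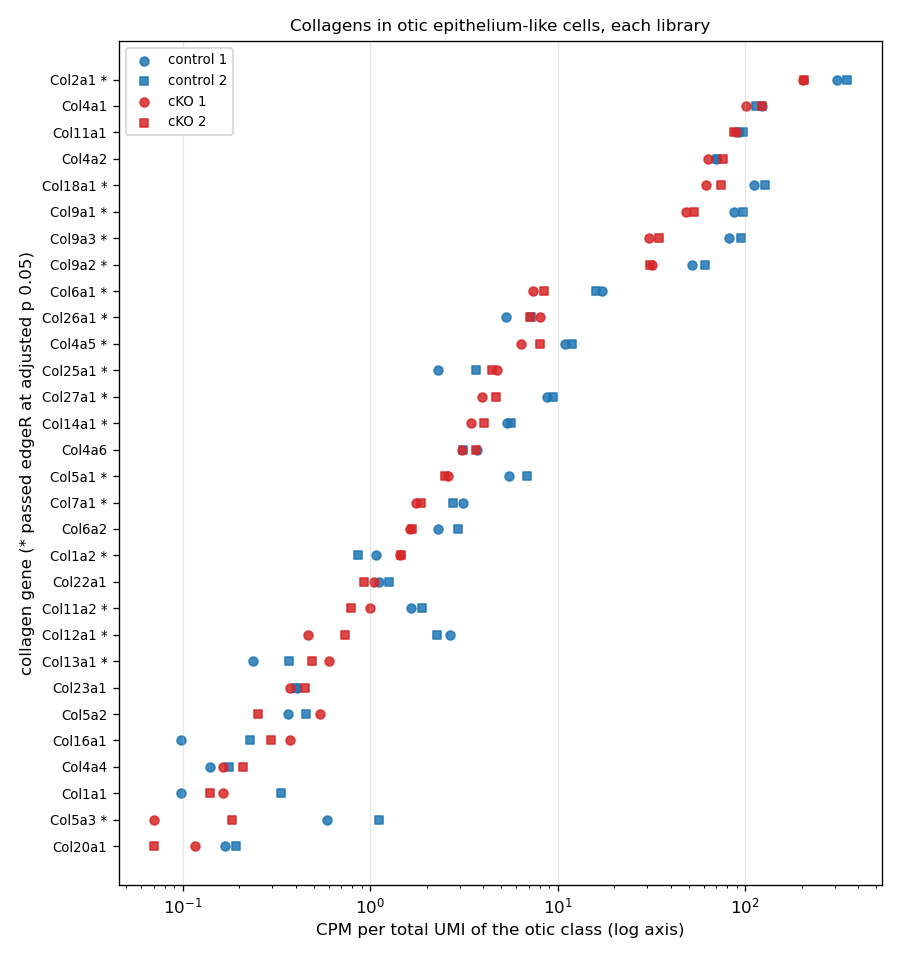
Level of each tested collagen gene in otic epithelium-like cells, 1 point per library (control blue, cKO red; replicate 1 circles, replicate 2 squares), on a log axis of CPM. For Col2a1 and the 3 type IX genes both cKO points lie left of both control points, while those of Col4a1 and Col4a2 are mixed; an asterisk marks an adjusted p under 0.05.

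These otic values combine different clusters, so the clusters found in every library were compared on their own. In cluster 17, of 17 members tested 11 fell and none rose, where 13.5% of 10375 genes fell and 1557 rose. The median log2 change was -0.72 over the members and -0.02 over all genes. The 4 members described above as marking control cluster 17 were picked by their high control levels there. Those levels enter this test, so a fall was favoured in advance. Each of the 4 fell, whereas Col9a1 and the type IV genes did not pass. Col11a2 and Col5a3 could pass the filter on low counts only through control cells. Col14a1 was at 119 and 81.2 CPM in control against 20.7 and 27.9 in cKO (log2 -1.85, SE 0.19, adjusted p = 6.5e-06), and Col11a2 at 26.1 and 20.4 against 2.3 and 3.6 (-2.62, SE 0.31, adjusted p = 2.1e-05). Col5a3 went from 12.1 and 22.6 to 0.9 and 1.7 CPM (-3.21, SE 0.42, adjusted p = 6.8e-05), and Col11a1 from 531 and 379 to 298 and 268 (-0.58, SE 0.13, adjusted p = 0.0036). Col2a1 (-0.73), Col18a1 (-0.72), Col9a3 (-0.83), Col9a2 (-0.63), Col6a1 (-1.20), Col7a1 (-0.92) and Col5a1 (-1.26) fell too. Of these, Col9a2 did not pass without cKO 2, Col7a1 without control 1 or cKO 2, and Col5a1 without control 1 or either cKO library. All 3 were also lost with DESeq2, which called 8 of the 17 members and 1228 of the 10375 genes. Col9a1, at 185 and 159 against 150 and 161 CPM, had a log2 change of -0.03 (SE 0.11, adjusted p = 0.87), and Col4a1 one of 0.16 (adjusted p = 0.39).

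In cluster 4, supported by Gbx2, Otol1 and Rspo3, the calls went both ways. Of 18 members tested 3 rose and 2 fell, where 6.93% of 11698 genes rose and 6.63% fell. Col11a1 rose from 102 and 95.6 CPM to 228 and 159 (log2 0.95, SE 0.13, adjusted p = 0.00046), and Col14a1 from 4.0 and 5.6 to 22.7 and 13.4 (1.80, SE 0.31, adjusted p = 0.0021). Col4a2 rose by 0.56 (adjusted p = 0.0088). Col6a1 fell by 0.98 (adjusted p = 0.01) and Col2a1 by 0.37 (adjusted p = 0.046). DESeq2 gave neither of those falls, and both were lost without cKO 2, that of Col2a1 also without either control library. The type IX genes did not pass, with log2 changes of 0.31 (Col9a1), -0.23 (Col9a2) and -0.10 (Col9a3). The cKO values of this cluster rest on 29 and 69 cells.

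The difference of the change between the 2 clusters was tested with the library as a block, a comparison added after the cluster values had been seen. It passed for 7 of 18 members, all of them lower in cluster 17, against 15.9% of 10984 genes in either direction. Col14a1 (-3.64, SE 0.40, adjusted p = 1.1e-05) and Col11a1 (-1.52, SE 0.14, adjusted p = 1.9e-06) therefore went in opposite directions in the 2 clusters. Col7a1 (-1.78), Col18a1 (-0.91), Col9a3 (-0.72) and Col4a2 (-0.59) differed as well. Col11a2 (-3.68) was the other of the 7, but it did not pass the filter in cluster 4, where it had 14, 8, 3 and 4 UMIs, and entered through control cells of cluster 17, so its difference is not read further. Over the whole otic class the change of Col11a1 was 0.06.

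Clusters 0 and 1, the bulk of cKO otic cells, could not be compared with control cells of the same clusters. Their Col2a1 was at 191 and 192 CPM in cluster 0 and 202 and 208 in cluster 1, below the lowest control value of any otic cluster, 231 CPM. The same held for Col9a3, at 25.1 to 30.3 CPM against at least 45.9, and for Col9a1, at 39.2 to 45.3 against at least 64.7. Col4a1, at 89.4 to 123 CPM, overlapped the control clusters, which ranged from 103 to 168 CPM.

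**Figure D4:**
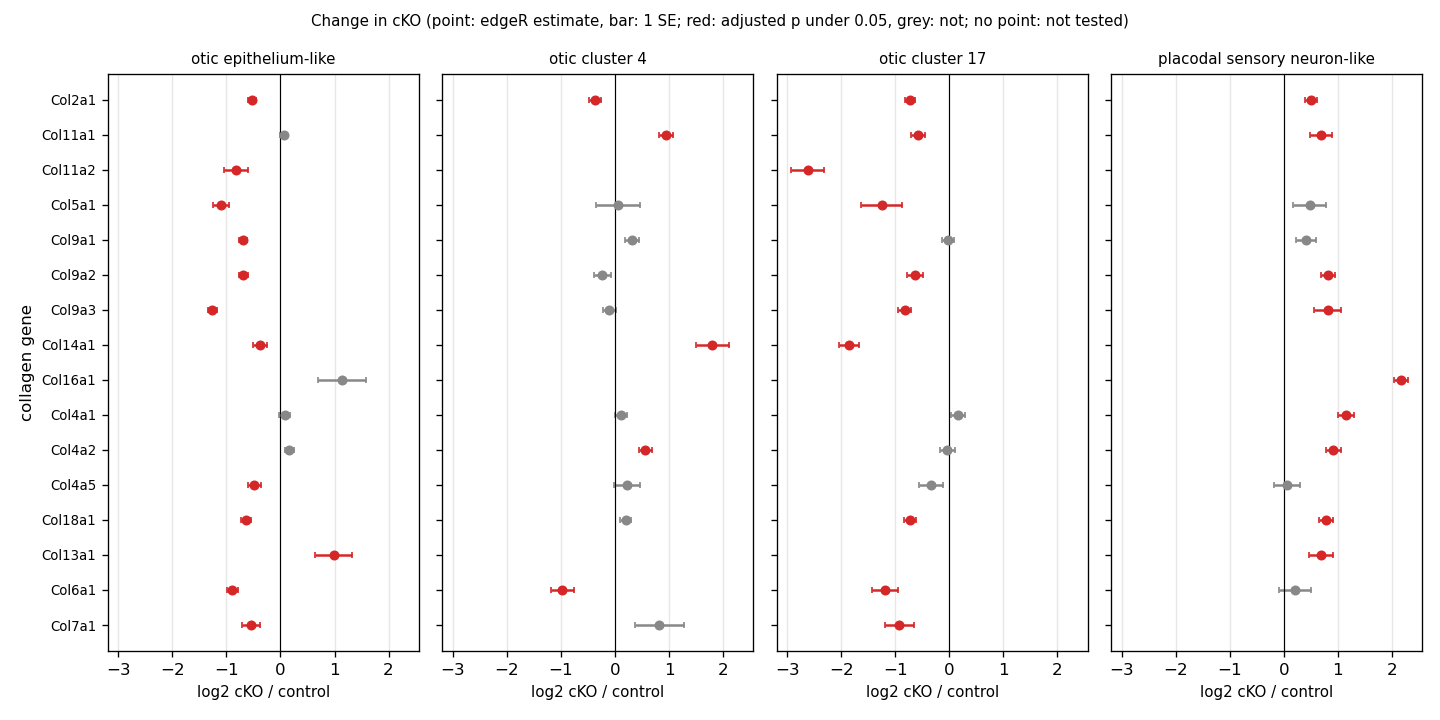
Log2 change (cKO over control) of 16 collagen genes in otic epithelium-like cells, in otic clusters 4 and 17 and in placodal sensory neuron-like cells; points are edgeR estimates, bars 1 SE, red points have an adjusted p under 0.05, and genes that were not tested have no point. Col11a1 and Col14a1 lie right of 0 in cluster 4 (0.95 and 1.80) and left of it in cluster 17 (-0.58 and -1.85), and the called neuron points lie right of 0.

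Genes that regulate, modify or degrade collagen were taken as 8 lists, whose counts in otic cells stand beside the 20.9% of all genes that rose and the 19.5% that fell. Of the 8 regulators and partners of cartilage collagens, 7 were tested in otic cells, and 5 fell and none rose. Cnmd, which encodes chondromodulin, went from 37.4 and 54.9 to 9.0 and 10.8 CPM (log2 -2.04, SE 0.16, adjusted p = 7.1e-05), and Matn4, a matrilin, fell by 2.21 from under 1 CPM. The transcription factor gene Sox9 went from 357 and 321 to 171 and 153 CPM (-0.90, SE 0.09, adjusted p = 0.00026). Sox6 fell by 0.83 (adjusted p = 0.0025) and Sox5 by 0.63 (adjusted p = 0.0014). In cluster 17 Sox9 was at 405 and 415 CPM in control against 205 and 219 in cKO (-0.84, adjusted p = 2.6e-05), and Sox6 at 61.9 and 58.6 against 23.9 and 29.0 (-1.03, adjusted p = 0.00027). In cluster 4 Sox9 was at 312 and 290 against 205 and 191 (-0.58, adjusted p = 0.0024), where Col11a1 and Col14a1 rose. The SOX genes were singled out after their values were seen. Whether these factors have a part in the collagen values was not tested.

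Of 15 genes for hydroxylation and glycosylation, all tested in otic cells, 3 rose and 4 fell. P3h4, which works with a lysyl hydroxylase in the endoplasmic reticulum, rose from 17.6 and 19.5 to 36.2 and 38.4 CPM (1.18, SE 0.08, adjusted p = 2.3e-05). P3h4 also rose in placodal neurons (1.59, adjusted p = 0.00012) and mesenchyme (0.87, adjusted p = 0.016). The largest falls and rises of this list, P4ha3 (-1.59) and P3h2 (1.31), were at 0.44 CPM or less. Of 8 chaperone and secretion genes, 2 rose and 3 fell. Sec24d, a coat protein of vesicles that leave the endoplasmic reticulum, fell from 3.1 and 4.2 to 1.0 and 1.0 CPM (-1.64), and Creb3l2, a factor that drives this secretory machinery in cartilage, fell from 21.1 and 25.0 to 12.4 and 12.3 (-0.73). Both also fell in placodal neurons, by 1.40 and 0.89. Serpinh1, the collagen chaperone HSP47, rose by 0.36 in otic cells and by 0.56 in placodal neurons.

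Of 8 genes for propeptide removal, 5 were tested in otic cells, of which 1 rose and 3 fell. Pcolce2, an enhancer of the C-propeptidase, rose from 16.1 and 14.1 to 68.9 and 75.5 CPM (2.42, SE 0.09, adjusted p = 2.8e-06), and Adamts14, an N-propeptidase, fell by 1.45 from under 1 CPM. Of 6 crosslinking genes 4 were tested and 2 fell: Pxdn, the peroxidasin that crosslinks type IV collagen, from 31.6 and 31.9 to 19.4 and 21.0 CPM (-0.48), and Loxl3, a lysyl oxidase (-0.60). Of 10 receptor genes 7 were tested, 1 rose and 3 fell, with Adgrg6 (-2.57) and Itga10 (-1.39) the largest, both from low levels. Of 11 genes for collagen breakdown 9 were tested and 3 fell. Timp3, a metalloproteinase inhibitor, went from 11.6 and 10.8 to 0.8 and 1.0 CPM (-3.39, SE 0.14, adjusted p = 3.7e-06), and Mmp14, a membrane collagenase, from 35.3 and 41.9 to 15.6 and 17.8 (-1.03, adjusted p = 0.00015).

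Of 17 other basement membrane genes, 15 were tested in otic cells, and 5 rose and 5 fell. Sparc, a collagen-binding protein, fell from 131 and 175 to 43.7 and 61.6 CPM (-1.37, adjusted p = 0.0005), and the laminin gene Lama4 rose from 0.3 and 0.3 to 1.4 and 1.1 CPM (2.18, adjusted p = 0.00085). In cluster 17, 13 were tested, of which 8 fell, against 13.5% of all genes, and none rose. Smoc2, a calcium-binding matrix protein, was among those that fell (-1.76). The median log2 change of this list was -0.66 in cluster 17 and 0.01 over the 12 members tested in cluster 4. Both Pcolce2 and P3h4 rose within each of these clusters, Pcolce2 by 1.89 in cluster 17 and 2.15 in cluster 4, and P3h4 by 0.93 and 1.60.

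In placodal sensory neuron-like cells 10 of 19 members tested rose and none fell, where 18.5% of 12918 genes rose and 2469 fell. The median log2 change was 0.50 over the members and -0.02 over all genes. Col16a1 was at 9.0 and 7.5 CPM in control 1 and 2 and at 34.7 and 33.8 in cKO 1 and 2 (log2 2.17, SE 0.13, adjusted p = 4.7e-05). Col4a1 went from 26.0 and 19.6 to 41.3 and 52.1 CPM (1.15, SE 0.15, adjusted p = 0.0013), and Col4a2 rose by 0.91 (adjusted p = 0.0022). Col9a2 (0.81), Col9a3 (0.81), Col18a1 (0.78), Col11a1 (0.69), Col13a1 (0.69), Col2a1 (0.50) and Col26a1 (0.35) rose too. For these 10 genes the control and cKO libraries did not overlap. Over all comparisons, 1 of 54 called members overlapped, so this adds little to the calls themselves.

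The makeup of this class moved with the genotype. Cluster 5, low in collagen (Col2a1 at 16.8 and 11.1 CPM in control), held 35.2% and 51.1% of the class in control and 8.0% and 4.8% in cKO. Cluster 19, high in collagen (Col2a1 at 194 and 224 CPM in control), held 10.53% and 8.61% in control and 27.1% and 29.2% in cKO. Clusters 2 and 19 were therefore each fitted alone, a step added after the class values had been seen. In cluster 19 Col2a1 was lower in cKO (118 and 145 CPM) and fell by 0.62 (SE 0.13, adjusted p = 0.0025), as did Col9a1 (-0.66, adjusted p = 0.014) and Col9a2 (-0.52, adjusted p = 0.015). In cluster 2 Col2a1 was at 45.6 and 49.9 against 42.6 and 44.5 CPM, with a log2 change of -0.04. The rise of Col2a1 in the class was thus not found within either cluster. Col16a1 rose in both. In cluster 2 it was at 12.99 and 9.14 CPM in control against 37.0 and 32.8 (1.73, SE 0.16, adjusted p = 5.9e-05), and at 6.9 and 14.2 against 36.3 and 40.1 in cluster 19 (1.87, SE 0.26, adjusted p = 2.5e-05). Col4a1 (0.68), Col4a2 (0.39) and Col9a2 (0.43) rose in cluster 2. Without doublet removal 3 of 20 members rose in the class and none fell, where 2068 of 12595 genes rose and 1932 fell. Without cKO 2 the calls of Col2a1, Col9a3, Col11a1, Col13a1 and Col26a1 were lost.

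The changes in otic cells and placodal neurons were set against each other in 1 model with the library as a block. The difference passed for 11 of 30 members, all of them lower in otic cells, against 16.2% of 15124 genes in either direction. Col9a3 (-2.11, SE 0.23, adjusted p = 0.00031), Col9a2 (-1.53), Col18a1 (-1.46), Col4a1 (-1.10) and Col2a1 (-1.06) were among them. Col5a3 also counts among the 11, but it did not pass the filter in placodal neurons, where it had 4, 3, 7 and 8 UMIs, so its difference is not read. Because the class makeup of the neurons moved as described, these differences hold for the classes as wholes. The part of the makeup in them was not tested.

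In epibranchial neurons 5 of 19 members tested rose and none fell, where 11.6% of 12816 genes rose and 1625 fell. Col16a1 went from 3.0 and 3.1 to 13.5 and 12.8 CPM (2.20, SE 0.20, adjusted p = 0.0015), and Col13a1 from 11.8 and 7.4 to 53.1 and 29.6 (2.17, SE 0.31, adjusted p = 0.0052). Col4a1 (1.07), Col26a1 (1.04) and Col9a1 (0.68) rose as well. The Col9a1 call was lost without either control library, with DESeq2 and with collagens among the clustering genes. Cluster 8, in which Col13a1, Col26a1 and Col4a1 were higher than in cluster 11 in every library, held 37.6% and 41.6% of the class in control and 75.4% and 59.9% in cKO. Within cluster 8 alone Col16a1 (2.21, adjusted p = 0.0022), Col13a1 (1.36, adjusted p = 0.0089) and Col26a1 (0.84, adjusted p = 0.012) rose. Col4a1 and Col9a1 did not pass there, with Col4a1 at 28.7 and 18.0 CPM in control against 27.9 and 39.1 in cKO. Within cluster 11 alone Col16a1 rose (2.05, adjusted p = 0.0034), Col4a2 fell (-0.81, adjusted p = 0.034), and Col4a1 had a log2 change of -0.83. Col16a1 thus rose in all 4 neuron clusters tested. In otic cells, at 0.1 and 0.2 against 0.4 and 0.3 CPM, it did not pass (1.14, adjusted p = 0.069).

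In mesenchyme-like cells 2 of 20 members tested fell and none rose, where 2.64% of 10370 genes fell and 301 rose. Col1a2 fell by 0.71 (SE 0.11, adjusted p = 0.0092), with the levels given above. Col6a3, a type VI chain highest in this class, went from 9.1 and 9.3 to 1.5 and 2.1 CPM (-2.21, SE 0.36, adjusted p = 0.0092). It could pass the filter on low counts only through control cells, so a fall of Col6a3 was favoured in advance. Neither passed without cKO 1, the library with the most of these cells, and Col6a3 did not pass with DESeq2. Col3a1 overlapped between the genotypes. Of the list of hydroxylation genes P4ha1 rose by 0.99 (adjusted p = 0.011), and Hapln1, a link protein of cartilage matrix, rose from 6.6 and 6.1 to 32.2 and 29.1 CPM (2.39, adjusted p = 0.00031).

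In ectoderm-like cells 2 of 18 members tested fell and 1 rose, where 2.73% of 11961 genes fell and 2.88% rose. Col2a1 went from 198 and 208 to 129 and 119 CPM (-0.64, SE 0.10, adjusted p = 0.0073), a call lost without cKO 2. Col11a1 went from 42.8 and 64.7 to 17.9 and 23.4 (-1.20, SE 0.21, adjusted p = 0.0092). Col26a1 rose by 0.83 (adjusted p = 0.025), a call lost with DESeq2 and without control 1 or either cKO library.

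In the remaining classes edgeR called no member. Neural tube progenitor-like cells had 0 of 10 members tested, where 1.03% of 8567 genes passed. An unadjusted p under 0.05 was found for 0 members and for 1197 of all genes. Neural tube neuron-like cells had 0 of 6, where 1.44% of 10509 genes passed. There 1 member had an unadjusted p under 0.05, as did 2027 of all genes. DESeq2 called 0 in both. Neural crest or glia-like cells of low UMI counts had 0 of 13, where 0.186% of 8048 genes passed. However, 8 members had an unadjusted p under 0.05, as did 1249 of all genes, and all 8 were lower in cKO. DESeq2 called 0 members there. Of Col11a1, at 266 CPM in control 1 and 11.3 to 13.4 in the other libraries, 106 of 115 UMIs of control 1 came from 2 cells. The median UMI count per cell of this class was 23978 in control 2 and between 4167 and 5380 in the others, and its part in these values was not tested. No member passed the filter on low counts in leukocyte-like cells or in the epibranchial cells of low UMI counts, and endothelium-like and pharyngeal endoderm-like cells were too few in control 2 for a test.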

How the data were processed

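The deposited matrices hold whole-number UMI counts per gene and cell barcode, made from 10x 3′ v3.1 libraries with Cell Ranger (6.0.1 per the file headers, 3.1.0 per the submitters' processing notes, which also name FastQC 0.11.4 and Seurat 4.1.0) on mm10. Barcodes were kept with at least 1000 genes and at most 10% mitochondrial UMIs, and the cells with the highest Scrublet scores were removed at a rate of 0.8% per 1000 barcodes, since its automatic threshold marked 0 to 5 cells a library. Cells were clustered (scanpy 1.11.5, leidenalg 0.10.2, resolution 1) on 2000 variable genes without collagens. Clusters were named from marker lists by a rule settled after the clusters had been seen. Library totals ran from 106769747 to 128205192 UMIs.

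Counts were summed per class and library where every library had at least 20 cells, and tested with edgeR 4.0.16 (quasi-likelihood, TMM, filterByExpr, prior count 1, Benjamini-Hochberg adjusted p under 0.05) in R 4.3.3, with 2 control against 2 cKO libraries. An exact permutation test of 2 against 2 cannot give a p below 0.333. DESeq2 1.42.0, RLE size factors, no filter on low counts, clustering with collagens, other cluster resolutions, no doublet removal and single libraries left out were the alternatives. The fit was tested on simulated data. Per class the 8 members with the highest mean were named, per comparison every member that passed, up to the 15 with the largest change, and per list the 2 that changed most, except 1 gene that is not reported here. All 18 calls in otic cells are given, and further members were named after their values were seen. The members, lists and comparisons were chosen with earlier results of these data known. Promoter windows were read from RefSeq (GRCm38.p6).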

Additional observations from a re-analysis of the deposited data

Results flagged for a closer look

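The change between cKO and control differed between otic epithelium-like and placodal sensory neuron-like cells for 11 members, by the edgeR test of the difference. As log2 change in otic cells minus that in neurons, the values of the cartilage-type chains were -1.14 for Col9a1, -1.53 for Col9a2, -2.11 for Col9a3, -1.06 for Col2a1 and -0.67 for Col11a1. Those of the other fibrillar chains were -1.62 for Col5a1 and -4.00 for Col5a3. Those of the basement membrane set were -1.10 for Col4a1, -0.79 for Col4a2 and -1.46 for Col18a1, and Col6a1 of type VI collagen had -1.13. Col5a3 did not pass the filter on low counts in neurons, where it had 4, 3, 7 and 8 UMIs, and no statement rests on its value.

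The change also differed between otic cluster 17 and otic cluster 4 for 7 members. As the change in cluster 17 minus that in cluster 4, the values were -3.64 for Col14a1, -1.52 for Col11a1, -3.68 for Col11a2, -1.78 for Col7a1, -0.91 for Col18a1, -0.72 for Col9a3 and -0.59 for Col4a2. For Col11a1 and Col14a1 the change had opposite signs in the 2 clusters and passed in each. This comparison was added after the cluster values had been seen, and cluster 4 had 29 cells in cKO 1. Col11a2 did not pass the filter in cluster 4, where cKO cells had 3 and 4 UMIs of it, and no statement rests on its value.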

How the results depend on the processing

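A call was taken as kept where it passed in every alternative that tested its gene, with the class left whole. Such calls numbered 10 of 18 in otic cells, 8 of 11 in cluster 17 and 3 of 5 in cluster 4. They numbered 3 of 10 in placodal neurons, 4 of 5 in epibranchial neurons, 0 of 2 in mesenchyme and 1 of 3 in ectoderm. In otic cells a gene that fell was not tested with doublets kept, so its call could not be checked there. No filter on low counts gave 8 members in epibranchial neurons (5 with it), 6 in mesenchyme (2), 5 in neural crest or glia (0) and 1 in neural tube neurons (0). DESeq2 gave 13 in otic cells, 8 in cluster 17, 3 in cluster 4, 8 in placodal neurons, 4 in epibranchial neurons, 2 in ectoderm and 1 in mesenchyme. Collagens among the clustering genes gave 12 in epibranchial neurons. No doublet removal gave 12 in otic cells, 3 in placodal neurons (10 with removal), -0.14 for Col2a1 there and 0.28 for Col14a1 in otic cells. Neuron clusters were also fitted alone, an alternative added after seeing the data. Cluster 2 gave 4 of 14 members and 3350 of 11790 genes. Cluster 19 gave 4 of 13 members and 1342 of 9547 genes. Cluster 8 gave 3 of 16 members and 746 of 11077 genes, and cluster 11 gave 2 of 16 and 1106 of 11767. Directions turned in cluster 19 for Col9a3 (-0.40), Col9a2 (-0.52), Col4a1 (-0.13), Col18a1 (-0.022) and Col2a1 (-0.62), in cluster 2 for Col2a1 (-0.037), and in cluster 11 for Col9a1 (-0.20) and Col4a1 (-0.83). The other counts of members in this section describe movement between settings and are not read as a result about the members. Beyond the construction of each alternative, the cause was not tested.

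Leaving out each library in turn gave 12 to 14 members in otic cells (18 with all), 5 to 13 in placodal neurons, 4 to 8 in epibranchial neurons, 0 to 5 in mesenchyme, 1 to 4 in ectoderm, 0 to 7 in neural crest or glia and 0 to 1 in neural tube neurons. It gave 4 to 5 in cluster 4, 8 to 11 in cluster 17 and 8 to 14 for the difference between otic cells and neurons. Samples with the same replicate number did not deviate together (correlations of -0.077 to 0.069). No pairing by number was thus seen, but these deviations include counting noise, so a pairing is not excluded. With the replicate number as a block, 18 members passed in otic cells, 9 in placodal neurons, 7 in epibranchial neurons, 2 in mesenchyme, 3 in ectoderm, 5 in cluster 4 and 11 in cluster 17. Changes of members below 1 CPM rest on few UMIs.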
